A study of Atriplex lentiformis with 8 samples.

Results

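Histone genes were followed in leaves of Atriplex lentiformis, the quailbush, a C4 shrub of saline soils, grown at 2 temperatures. Of the 46492 assembled transcripts in the deposited table, 61 had a best Arabidopsis match whose description names a histone, by a text rule that excluded matches to chloroplast and mitochondrial genes. The rule used no expression value. Of the 61 transcripts, 36 matched genes of core histones, 19 had weak matches to a single H2A.X gene, and 6 matched proteins that are neither core nor linker histones. The cool chamber was kept at 23 °C in the light period and 18 °C in the dark, and the hot chamber at 43 °C and 30 °C. The photoperiod was 16 hours in both, the light intensity is labelled 120 micro Einstein, and the duration given is 8 weeks. The cool leaves are labelled as having a 16:3 lipid phenotype and the hot leaves an 18:3 one. Total RNA of 4 biological replicates per temperature was sequenced, 8 libraries in all. Chamber and temperature cannot be told apart.

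In plants, as in other eukaryotes, nuclear DNA is wrapped around an octamer of the core histones H2A, H2B, H3 and H4, and the linker histone H1 binds where the DNA enters and leaves. Canonical H2A, H2B, H4 and the H3 form H3.1 are made mainly during the S phase of the cell cycle, when new DNA is packaged. Replacement variants are deposited outside replication as well: H3.3 in transcribed genes, H2A.Z around gene starts and in responsive genes, H2A.W in plant heterochromatin, H2A.X at sites of DNA damage and CENH3 at centromeres. In Arabidopsis, loss of H2A.Z from nucleosomes is known to accompany warmth. In mature leaves few cells divide.

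The table holds a single FPKM value per transcript and temperature, a fragment count scaled for transcript length and sequencing depth. These values were taken as the authors' means, so they carry no SD, and the read depth behind them is unknown. A transcript is called higher or lower at 43 °C where the authors' deposited table lists an adjusted p below 0.05. The sources used here do not say whether that p rests on the spread between replicates. Genes are named after their best Arabidopsis match, which does not show orthology. Near-identical histone genes and assembled variants can share reads, so the division of a level among transcripts of 1 type is uncertain.

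Core histone transcripts were mostly higher at 43 °C. Of the 24 higher ones, 18 matched the forms made mainly for replication, which were 23 of all 36. Of the 36 core histone transcripts, 24 (66.7%) were higher, 2 were lower and 10 did not pass, by the authors' deposited table. These 36 leave out the 6 other proteins and the 19 weak matches, which were set apart after their values had been seen. With both included, 31 of the 61 transcripts were higher and 8 lower. Over all deposited transcripts 20.7% were higher and 17.8% lower. By the most abundant transcript of each of the 14 genes matched by core transcripts, 8 were higher and 2 lower. Counted in that way, 26.9% of all matched Arabidopsis genes were higher and 30.9% lower. Together the 36 summed to 1877 FPKM in the cool leaves and 2332 FPKM in the hot leaves. H2A, H2B, H3.1 and H4 went from a summed 929 to 1434 FPKM, a ratio of 1.54, with 18 of their 23 transcripts higher and none lower. The 2 transcripts of H3.3, the most abundant type at 23 °C, went from a summed 646 to 550 FPKM, with 1 lower and 1 not passing. In leaf RNA, a different share of cells of a type and a different amount of RNA per cell cannot be told apart.

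**Figure D1:**
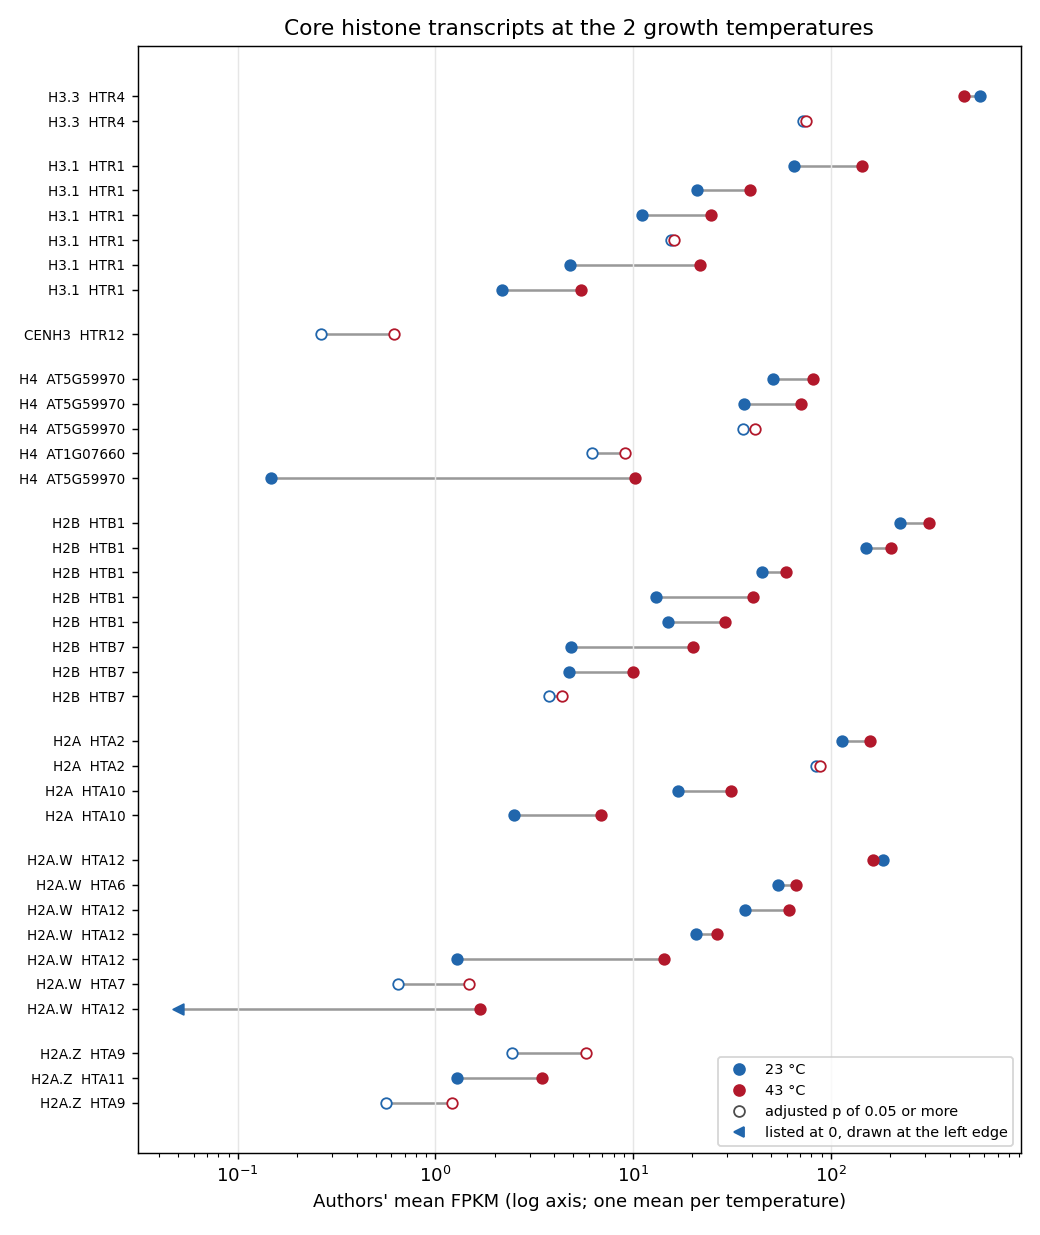
Authors' mean FPKM of each of the 36 core histone transcripts at 23 °C (blue) and 43 °C (red), on a log axis, grouped by histone type and labelled with the matched Arabidopsis gene. Filled points have an adjusted p below 0.05 in the authors' deposited table, and the triangle marks a transcript listed at 0. For 34 transcripts the authors' log2 change is above 0, and the exceptions are the most abundant transcripts of H3.3 and H2A.W.

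In the authors' deposited table the 36 core transcripts had a median log2 of 0.92, against 0.10 for all transcripts. Abundant transcripts more often fell than rose in these leaves: at a mean of at least 5 FPKM over the 2 temperatures, 26.2% of all transcripts were higher and 35.2% lower. Of the 27 core histone transcripts above that level, 20 (74.1%) were higher and 2 (7.41%) lower. The length-weighted FPKM totals of the table were 1084419 at 23 °C and 909555 at 43 °C, and setting them equal adds 0.25 to every log2 change. With equal totals, 28 core transcripts (77.8%) were higher and none lower, against 27.9% higher and 12.9% lower over all transcripts. The median of all transcripts rose to 0.35. On that scale 68.4% of all calls were higher, against 53.7% as deposited, and both core transcripts lower as deposited no longer passed. Median centring, which sets the median of all transcripts to 0, left 22 core transcripts (61.1%) higher and 2 lower. Over all transcripts 18.3% were then higher and 20.2% lower.

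The makeup of H3 transcripts differed between the temperatures. All 6 H3.1 transcripts matched HTR1 (AT5G65360), and they summed to 120.0 FPKM in the cool leaves and 252 FPKM in the hot leaves, a ratio of 2.10. The most abundant of them went from 65.1 to 144 FPKM, a log2 change of 1.14 with an adjusted p of 9.26e-27 in the authors' deposited table. A second transcript, with a match almost as strong, went from 21.2 to 39.3 FPKM, with a log2 change of 0.89 and an adjusted p of 3.62e-06 in the authors' deposited table. The remaining 4 are variants of a single assembly component, the assembler's group of related transcripts. The strongest listed rise of the type was among these, from 4.81 to 21.8 FPKM (log2 2.18, adjusted p = 4.45e-08 in the authors' deposited table). The 1 variant that did not pass, at 15.5 and 16.2 FPKM, had a weak match (E = 7.7e-08) and was 986 bases long. A variant with a similar length of 993 bases and a weak match (E = 5.7e-10) went from 2.18 to 5.48 FPKM and passed.

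Both H3.3 transcripts matched HTR4 (AT4G40030). The more abundant, at 573 FPKM in the cool leaves and 474 FPKM in the hot leaves, was the highest core histone transcript of the table at both temperatures. Its log2 change was -0.28 with an adjusted p of 2.5e-04 in the authors' deposited table. With equal totals its log2 change was -0.03 and it did not pass. The other H3.3 transcript stood at 72.9 and 75.1 FPKM and did not pass as deposited, at an adjusted p of 0.79 by the authors' deposited table, but passed as higher with equal totals. The share of H3.1 in summed H3.1 and H3.3 was 15.7% at 23 °C and 31.4% at 43 °C. That share is a ratio within each temperature and does not depend on the scaling between them. Using only the most abundant transcript of each type, the share was 10.2% at 23 °C and 23.3% at 43 °C. The centromeric form CENH3 (HTR12) was listed at 0.265 and 0.6175 FPKM and did not pass (adjusted p = 0.24, from the authors' deposited table).

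Histone H4, the partner of H3, is represented by 5 transcripts with a summed level of 130 FPKM in the cool leaves and 214 FPKM in the hot leaves, a ratio of 1.64. Of these, 3 were higher and none lower. The most abundant matched AT5G59970 and went from 51.3 to 81.8 FPKM, with a log2 change of 0.67 and an adjusted p of 6.93e-06 in the authors' deposited table. A transcript of another component with the same match went from 36.7 to 71.2 FPKM (log2 0.95, adjusted p = 5.94e-11 in the authors' deposited table). Another component held a variant at 35.9 and 41.4 FPKM, which did not pass as deposited, and a variant of 2453 bases that went from 0.1475 to 10.3 FPKM. The authors' deposited table lists that last change as a log2 of 6.15 with an adjusted p of 1.31e-12. A transcript matching AT1G07660, at 6.23 and 9.15 FPKM, did not pass.

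Histone H2B had the highest sum of any type at 43 °C, 683 FPKM against 461 FPKM at 23 °C, and 7 of its 8 transcripts were higher with none lower. HTB1 (AT1G07790) was the match of 5 transcripts, all of them higher. The most abundant went from 224 to 316 FPKM, with a log2 change of 0.49 and an adjusted p of 8e-09 in the authors' deposited table. The next went from 151 to 203 FPKM, and the third from 45.1 to 59.3 FPKM. Short variants of a further component went from 13.1 to 40.4 FPKM and from 15.0 to 29.2 FPKM. HTB7 (AT3G09480) was the match of 3 variants, of which the first went from 4.89 to 20.3 FPKM (log2 2.05, adjusted p = 1.74e-09 in the authors' deposited table). The second went from 4.77 to 10.1 FPKM and also passed, and the third, at 3.76 and 4.39 FPKM, did not. The 3 most abundant H2B transcripts had listed log2 changes between 0.39 and 0.49 in the authors' deposited table, and the third HTB7 variant was listed at 0.23. As a share of all core histone FPKM, H2B made up 24.6% in the cool leaves and 29.3% in the hot leaves.

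**Figure D2:**
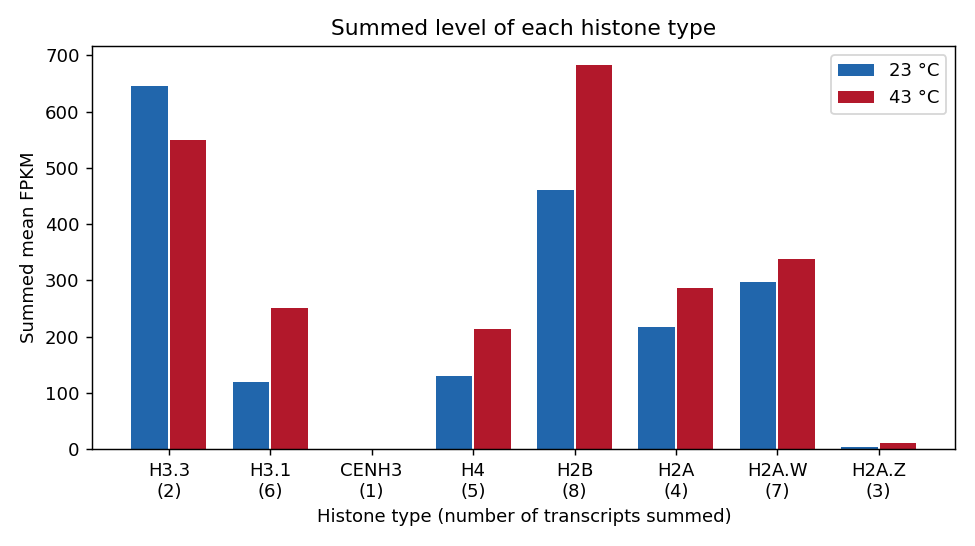
Authors' mean FPKM summed over the transcripts of each core histone type at 23 °C and 43 °C, with the number of transcripts in parentheses; bars start at 0 and carry no error because single libraries were not analysed. The H3.3 bar is lower at 43 °C (646 and 550 FPKM) and the bars of H3.1, H4, H2B, H2A and H2A.W are higher, with H2A.W nearest to level (297 and 338 FPKM).

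Canonical H2A was represented by 4 transcripts, 3 of them higher, with sums of 217 and 286 FPKM. The leading transcript matched HTA2 (AT4G27230) and went from 114 to 159 FPKM, with a log2 change of 0.47 and an adjusted p of 3.29e-08 in the authors' deposited table. A second HTA2 transcript, at 84.0 and 88.5 FPKM, did not pass. The 2 transcripts matching HTA10 (AT1G51060) went from 16.9 to 31.3 FPKM and from 2.51 to 6.90 FPKM, and both passed. Both HTA10 transcripts belong to an assembly component of 23 transcripts, in which 7 matched core histones and 9 matched other proteins, among them DNA methyltransferases. Without that component, 1 of the 2 remaining H2A transcripts was higher.

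The heterochromatin variant H2A.W was divided. Its most abundant transcript, matching HTA12 (AT5G02560), stood at 184 FPKM in the cool leaves and 164 FPKM in the hot leaves. It passed as lower by a small margin, with a log2 change of -0.17 and an adjusted p of 0.0473 in the authors' deposited table. With equal totals its log2 change was 0.09 and it did not pass. The 5 H2A.W transcripts that passed as higher all lie in the mixed component just described. Of these, HTA12 variants went from 36.9 to 61.8 FPKM, from 20.7 to 26.8 FPKM and from 1.29 to 14.3 FPKM, and another was listed at 0 in the cool leaves and at 1.69 FPKM in the hot leaves. The fifth matched HTA6 (AT5G59870) at E = 2.6e-16 and went from 54.0 to 67.1 FPKM (adjusted p = 0.0352, from the authors' deposited table). With median centring neither HTA6 nor the HTA12 variant at 20.7 FPKM in the cool leaves passed. Only 1 of the higher H2A.W transcripts had an E value of at most 1e-30. HTA7, at 0.65 and 1.485 FPKM, did not pass. Summed over all 7 transcripts, H2A.W had a log2 ratio of 0.18 between 43 °C and 23 °C, and without the mixed component the ratio was -0.15 with no transcript higher.

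The transcripts assigned to H2A.Z were scarce, with a sum of 4.31 FPKM in the cool leaves and 10.5 FPKM in the hot leaves. Their E values lay between 1.7e-19 and 1.1e-17, so none met the stricter limit of 1e-30. Whether they are whole H2A.Z transcripts was not tested. The single transcript matching HTA11 (AT3G54560) was 1872 bases long. It went from 1.29 to 3.47 FPKM, with a log2 change of 1.42 and an adjusted p of 8.97e-04 in the authors' deposited table. The 2 transcripts matching HTA9 (AT1G52740) were 417 and 425 bases long. They stood at 2.46 and 5.82 FPKM and at 0.565 and 1.215 FPKM, and neither passed. Their adjusted p values were 0.102 and 0.30 in the authors' deposited table. As a share of summed H2A, H2A.W and H2A.Z, H2A.Z was 0.831% in the cool leaves and 1.66% in the hot leaves, and H2A.W was 57.3% and 53.3%.

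The 19 transcripts whose best match was the H2A.X gene HTA5 (AT1G08880) differed from the core histone transcripts in properties other than level. Their E values lay between 5e-07 and 8.3e-07, and they were 1968 to 2969 bases long. The 36 core transcripts had a median of 875.5 bases but ran up to 2453 bases, so the lengths overlap, and their E values ran up to 7.7e-08. Among the 19 HTA5 matches, 15 are variants of a single component of 18 transcripts, and the other 3 variants of that component have no match. The 19 were set apart by an E value above 1e-07 after their values had been seen. Of the 19, 6 (31.6%) were higher, 5 (26.3%) lower and 8 did not pass by the authors' adjusted p in the deposited table. Over all transcripts the shares were 20.7% higher and 17.8% lower. The 19 summed to 98.99 FPKM in the cool leaves and 78.6 FPKM in the hot leaves. Variants of the same component moved in opposite directions: 1 went from 24.3 to 3.29 FPKM, another from 19.4 to 8.89 FPKM, and the third from 3.80 to 12.4 FPKM. A further variant stood at 8.21 FPKM in the cool leaves and was listed at 0 in the hot leaves, whereas a separate contig went from 0.2825 to 8.39 FPKM.

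**Figure D3:**
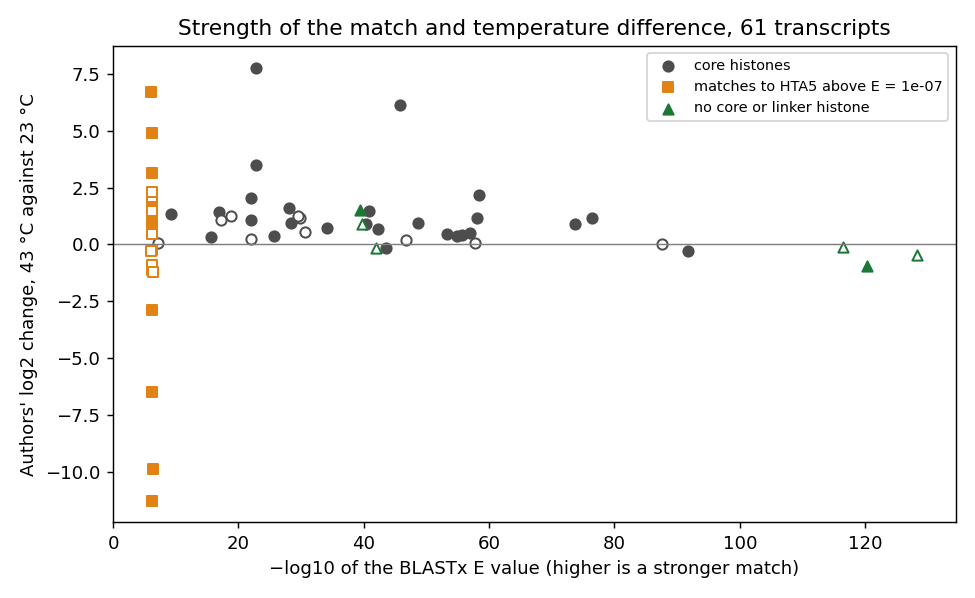
Authors' log2 change (43 °C against 23 °C) of the 61 transcripts against the strength of the Arabidopsis match, as −log10 of the BLASTx E value; filled symbols have an adjusted p below 0.05 in the authors' deposited table. The 19 weak matches to HTA5 stand together at the left edge on both sides of 0, while 34 of the 36 core histones lie above 0; log2 values of transcripts listed at 0 are the authors' and are not folds.

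Of the 6 transcripts that matched neither core nor linker histones, 1 was higher, 1 was lower and 4 did not pass. These counts are near the shares over all transcripts, 20.7% higher and 17.8% lower, and are no result about these proteins. A transcript matching AT4G17080, described as a member of the histone H3 K4 methyltransferase SET7/9 family, went from 27.1 to 13.9 FPKM, with a log2 change of -0.97 and an adjusted p of 4.48e-22 in the authors' deposited table. Another transcript with that match stood at 13.4 and 12.6 FPKM, and the related AT1G21920 at 8.65 and 6.37 FPKM, and neither passed. AT4G14385, whose description names a domain of the NuA4 histone acetyltransferase complex, had a transcript that went from 0.83 to 2.37 FPKM and passed, and a more abundant one at 15.3 and 13.8 FPKM that did not. AT5G50930, a histone-fold protein, stood at 0.955 and 1.79 FPKM and did not pass.

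Over all 61 transcripts, 31 (50.8%) were higher, 8 (13.1%) lower and 22 did not pass. The shares over all deposited transcripts were 20.7% higher and 17.8% lower. Just inside the threshold lay HTA5 variants with adjusted p values of 0.0406 and 0.0458 and the HTA12 transcript at 0.0473, and just outside lay AT1G21920 at 0.0513, HTA9 at 0.102 and an H4 variant at 0.13, all from the authors' deposited table.

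No linker histone carried a description that the rule takes in. A search by locus over 49 Arabidopsis histone genes found 3 further transcripts, and core members matched 14 of those genes. H1.2 (AT2G30620), an abundant linker histone, went from 321 to 227 FPKM, with a log2 change of -0.51 and an adjusted p of 4.48e-12 in the authors' deposited table. H1.1 (AT1G06760) went from 215 to 176 FPKM (log2 -0.29, adjusted p = 5.03e-04 in the authors' deposited table). The match to H1.1 was the weaker of these, at E = 1.2e-14 against 2.1e-30 for H1.2. With equal totals H1.2 was still lower at a log2 change of -0.25, while H1.1, at -0.04, did not pass. HTA3 (AT1G54690), the other Arabidopsis H2A.X gene, matched a transcript that went from 23.8 to 39.1 FPKM (log2 0.71, adjusted p = 6.59e-07 in the authors' deposited table). Its match was strong (E = 1.8e-54), and it is a variant of the component of the HTA2 transcript that did not pass.

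Genes of DNA replication, listed as context for the histones made in S phase, were mostly higher too. By the most abundant transcript of each of the 13 genes listed and matched, 9 were higher, 1 was lower and 3 did not pass. Counted in that way, 26.9% of the 12468 matched Arabidopsis genes were higher and 30.9% lower. The median log2 change of the 13, from the authors' deposited table, was 1.01, against -0.01 for all matched genes. TSO2, the small subunit of ribonucleotide reductase, went from 8.02 to 33.0 FPKM, and its large subunit RNR1 from 6.90 to 19.6 FPKM. PCNA2, the sliding clamp of DNA polymerase, went from 7.71 to 15.7 FPKM. ICU2, the catalytic subunit of DNA polymerase alpha, was at 4.28 FPKM in the cool and 2.38 FPKM in the hot leaves by its leading transcript, which passed as lower, whereas another variant went from 1.99 to 3.40 FPKM, and the leading one did not pass with equal totals. The licensing factor CDT1A, at 11.5 and 10.1 FPKM, and the helicase subunit MCM5, at 6.61 and 7.80 FPKM, did not pass. Of 7 mitosis genes listed, 4 were matched, of which 3 were higher: the cytokinesis syntaxin KNOLLE (1.4025 to 3.63 FPKM), the mitotic kinase CDKB2;2 (2.77 to 7.91 FPKM) and the cyclin CYCB1;2 (2.14 to 4.67 FPKM). CYCB2;1, at 1.095 and 2.04 FPKM, did not pass.

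**Figure D4:**
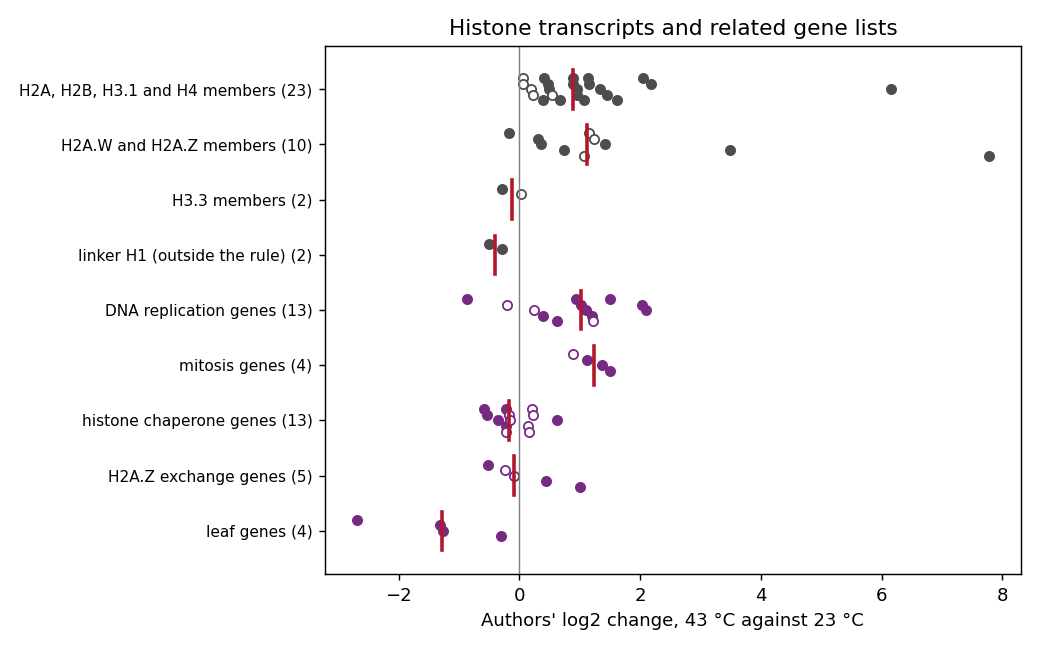
Authors' log2 change (43 °C against 23 °C) of histone transcripts (grey) and of genes in related lists by their most abundant transcript (purple), with the number of points in parentheses and the median as a red bar; filled points have an adjusted p below 0.05 in the authors' deposited table. The medians of replication-type histones (0.89, over transcripts) and DNA replication genes (1.01, over genes) lie above 0, and that of histone chaperones (-0.18) lies close to 0. By the most abundant transcript per gene, the median of the replication-type histones is 0.67. The point near 8 is an H2A.W variant listed at 0 at 23 °C and is not a fold.

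Of 17 genes listed for histone chaperones, which carry histones to DNA, 13 were matched, and by their most abundant transcripts 1 was higher, 5 were lower and 7 did not pass. Their lower count is near the share of 30.9% among all matched genes and is no result about chaperones. NAP1;2, a chaperone of H2A and H2B, went from 74.1 to 115 FPKM, with a log2 change of 0.63 and an adjusted p of 3.13e-16 in the authors' deposited table. Among the lower genes, NAP1;3 went from 38.3 to 33.2 FPKM, the H3 chaperone NASP from 27.3 to 19.03 FPKM and the elongation factor SPT6L from 26.1 to 22.5 FPKM. NRP2, at 34.8 and 38.6 FPKM, and MSI1, at 25.4 and 28.5 FPKM, did not pass. The direction of this list depended on scale: with equal totals 5 genes were higher and 1, NASP, was lower, and the log2 changes of NAP1;3 and SPT6L became 0.04 and 0.03. That scale raises every log2 change, and on it 27.9% of all transcripts, counted by transcript and not by gene, were higher and 12.9% lower. Of 6 genes for the exchange of H2A.Z, 5 were matched. The list covers SWR1, the complex that inserts H2A.Z, and INO80. ARP6 (3.65 to 7.39 FPKM) and PIE1 (7.06 to 9.62 FPKM) were higher. A second PIE1 transcript, at 5.31 and 5.30 FPKM, did not pass. SWC4 (11.1 to 7.82 FPKM) was lower, though not with equal totals, and INO80 (14.6 and 13.8 FPKM) and SWC2 (6.80 and 5.80 FPKM) did not pass. A less abundant SWC2 variant went from 5.37 to 1.81 FPKM and passed as lower, also with equal totals.

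Markers of leaf and of shoot meristem differed between the temperatures as well. By their most abundant transcripts, all 4 leaf genes matched of 5 listed were lower at 43 °C: the light-harvesting gene LHCB1.3 went from 5298 to 824 FPKM, RBCS1A of the Rubisco small subunit from 3882 to 3154 FPKM, the carbonic anhydrase CA1 from 3563 to 1486 FPKM and the Rubisco activase RCA from 1125 to 457 FPKM. Among all matched Arabidopsis genes, counted by the same rule, 30.9% were lower and 26.9% higher. LHCB1.3 variants at 2912 and 2722 FPKM and at 661 and 483 FPKM did not pass. With equal totals the RBCS1A transcript did not pass. The summed level of the 13 leaf transcripts was 25798 FPKM in the cool leaves and 12658 FPKM in the hot leaves, of which 10 were lower and 1, of RCA, was higher. Over all transcripts 17.8% were lower and 20.7% higher, and 35.2% and 26.2% at a mean of at least 5 FPKM. Of 4 shoot meristem genes listed, 2 were matched, and both were below 1 FPKM in the cool leaves. The leading STM transcript went from 0.0375 to 4.67 FPKM and a variant, which held most of the cool level, from 0.8325 to 2.22 FPKM. KNAT1 was listed at 0 in the cool leaves and at 3.27 FPKM in the hot leaves. The part that a different makeup of the sampled tissue has in the histone levels was not tested. None of the pollen and sperm markers listed was matched.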

How the data were processed

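Leaf RNA was sequenced in 8 libraries, 4 per temperature, and groups and replicate numbers follow the sample titles. CASAVA 1.8.2 and Bowtie2 were used, per the submitters' processing notes, which give no role for them. Per the file headers, the authors' deposited table gives FPKM at each temperature, a log2 fold change, a p-value with its FDR, and the TAIR10 protein matched best by BLASTx, with an E value (a score of match strength). All FPKM values were multiples of 0.0025 (within 1e-6) and were taken as means. The FDR matched Benjamini-Hochberg values recomputed from the p-values to within 3.2e-07. Assembler, counting, normalization and test are not given in the sources used, and read depth per library is unknown, so no interval could be computed.

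Because the table held means only, a planned limma fit on single libraries was not run, and calls are the authors' adjusted p at 0.05. Histone types were assigned by matched Arabidopsis locus. Levels were summed and calls counted with python 3.11.15, pandas 2.3.3, numpy 2.4.6, scipy 1.17.1 and matplotlib 3.10.9. Only the p-value adjustment and the rescaled calls were tested on simulated data, drawn from the normal distribution that the rescaling assumes. That test cannot show how well a normal distribution suits the authors' p-values. For other scalings, each call was approximated with a standard error back-calculated from the authors' log2 and p-value under a normal distribution. Named genes were the 2 most abundant loci and the extreme passing log2 changes of each type, every locus of the variants, every member that is no histone, and up to 3 higher, 3 lower and 2 not passing per context list. Other members were named to account for them. The members and lists were chosen with earlier results of these data known. Alternatives are given in the closing section. No sequences were used here.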

Additional observations from a re-analysis of the deposited data

How the results depend on the processing

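No paired analysis was possible because the table holds a single mean per temperature; leaving out replicates and fitting a replicate block were not run for the same reason. Only the authors' p-values speak to the precision of a value. The cause of the shifts below was not tested beyond what each alternative removes.

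At an adjusted p of 0.01, 1 core transcript was lower, and 2 H2A.W transcripts were higher and 0 lower. At a mean of at least 5 FPKM, 5 of 37 members were lower. With a pseudocount of 1 the log2 change of CENH3 was 0.35 in place of 1.23. With equal totals, 0 core, 0 H2A.W and 0 H3.3 transcripts were lower, 2 H2A.Z and 1 H3.3 were higher, and H3.3 turned to a median log2 of 0.13 and a sum ratio of 0.021 (log2); HTA12 (0.086), NAP1;3 (0.041) and SPT6L (0.025) turned as well. With median centring 3 H2A.W transcripts were higher.

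Counts below are of fewer transcripts, as each alternative leaves some out. Over all matched genes by their most abundant transcript, 26.9% were higher and 30.9% lower. By the most abundant transcript per locus, 8 of 19 members were higher and 4 lower, and 8 of 14 core, 1 of 3 H2A.W, 2 of 2 H2B, 1 of 1 H3.1 and 1 of 2 H4 were higher, the log2 sum ratio of H2A.W was -0.0328, and the H3.1 share was 10.2% at 23 °C and 23.3% at 43 °C. At E values of at most 1e-30, 15 of 26 members were higher and 3 lower, with 14 of 20 core, 1 of 2 H2A.W and 3 of 3 H2B higher. At 500 bases or more, 3 of 3 H2B and 3 of 4 H3.1 were higher.

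The next 3 were chosen after seeing the data. At E values of at most 1e-07, 3 of 42 members were lower. Without the mixed component, 1 of 2 H2A and 0 of 2 H2A.W were higher, and the H2A.W ratio was -0.15. By the most abundant transcript per component, 17 of 34 members were higher and 4 lower, with 13 of 23 core, 1 of 3 H2A.W and 3 of 3 H3.1 higher, and the H2A.W ratio was -0.0328.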
